A study of Mus musculus with 6 samples.

Results

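The RNA of 33 genes of the cell cycle and of DNA replication was compared between tumor initiating cells (TICs) and the remaining tumor cells of the MMTV-PyMT mouse. The 33 genes were chosen for their known functions in S phase and mitosis, and each was found in the count data by its Ensembl identifier. The data listed 41388 genes, of which 12192 were expressed, meaning above 1 CPM (counts scaled to a common library size) in at least 3 samples, and 31 of the 33 genes were among these. None of these 31 differed between the groups at an adjusted p below 0.1, where 1.55% of all expressed genes did. Of 98 further cell cycle genes that were expressed 1 did, Ccnd2, which was higher in TICs in that test, but its groups overlapped and the call was lost in most alternative fits.

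In MMTV-PyMT mice the polyoma virus middle T oncogene is driven in the mammary epithelium by the mouse mammary tumor virus promoter, and all 6 samples came from primary mammary tumors of this transgenic line (FVB/N-TgN(MMTVPyVT)634Mul/J). TICs were CD24+CD90+ cells (3 samples), and the comparison group is named CD24-CD90- in the series' design text and non-CD24+CD90+ tumor cells in the study's methods (3 samples). The latter name leaves in cells that carry either marker alone, and the samples are called other tumor cells here. CD45+ leukocytes had been depleted, the mice were 12 weeks old, and each library was made from 120 ng of RNA pooled from 4 cell sorts. The study also describes each pool as tumors of 4 mice. The labels name no further allele and no treatment.

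Dividing cells pass through a phase of DNA synthesis and then through mitosis, and the genes needed for each phase are switched on shortly before it. The E2F factors, held back by the RB protein until the cell commits to division, drive the replication genes, while the MuvB complex with B-Myb and FoxM1 drives the mitosis genes through a promoter element called the CHR, often together with CCAAT boxes bound by NF-Y. Because resting cells carry little of these RNAs, they are widely read as a measure of proliferation. In a bulk sample, fewer dividing cells and less RNA in each dividing cell cannot be told apart.

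The promoters of the mitosis and the replication genes were read for the elements of these factors. In the 300 bases from 250 before to 50 after the start of each gene, taken from RefSeq (GRCm38.p6), the following letters were searched on both strands. The CHR was searched as TTTGAA and in its other common form as TTCGAA, and the box bound by NF-Y as CCAAT. The E2F element was searched as TTGGCGC with the further spellings that follow. These were TTCCCGC in the first place, then the spelling TTCGCGC and, as the last of them, the spelling TTGCCGC. A window was found for 28 of the 33 genes (30 windows, 19 of mitosis genes and 11 of replication genes), and none was found for Ccna2, Tpx2, Mcm4, Kif20a and Aurkb. The following 5 promoters, cut to 200 bases before and 30 bases after the start, were picked after the search for the elements they hold and show both kinds, with every complete match in capitals and E2F matches able to overlap one another. Ccnb2, Top2a and Mki67 are mitosis genes and Mcm6 and Rrm1 are replication genes.
Ccnb2, chr9:70421525-70421754, minus strand: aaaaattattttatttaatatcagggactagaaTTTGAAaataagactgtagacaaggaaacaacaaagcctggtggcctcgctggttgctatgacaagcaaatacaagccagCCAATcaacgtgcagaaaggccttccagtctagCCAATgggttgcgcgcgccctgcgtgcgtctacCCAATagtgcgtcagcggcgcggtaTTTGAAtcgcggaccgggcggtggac
Top2a, chr11:99024160-99024389, minus strand: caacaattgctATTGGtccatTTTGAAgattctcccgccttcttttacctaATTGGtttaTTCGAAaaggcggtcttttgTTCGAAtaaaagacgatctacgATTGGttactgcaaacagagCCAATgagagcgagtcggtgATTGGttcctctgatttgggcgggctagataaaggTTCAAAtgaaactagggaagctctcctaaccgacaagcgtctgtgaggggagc
Mki67, chr7:135716350-135716579, minus strand: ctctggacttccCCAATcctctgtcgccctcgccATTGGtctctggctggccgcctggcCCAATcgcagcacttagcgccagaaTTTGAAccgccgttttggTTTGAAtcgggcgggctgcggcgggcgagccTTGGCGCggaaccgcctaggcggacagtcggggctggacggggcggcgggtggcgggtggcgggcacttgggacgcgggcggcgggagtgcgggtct
Mcm6, chr1:128359676-128359905, minus strand: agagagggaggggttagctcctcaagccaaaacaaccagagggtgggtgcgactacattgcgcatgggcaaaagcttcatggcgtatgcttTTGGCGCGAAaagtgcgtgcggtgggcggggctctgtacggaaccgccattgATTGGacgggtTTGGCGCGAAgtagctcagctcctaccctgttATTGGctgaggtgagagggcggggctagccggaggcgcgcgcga
Rrm1, chr7:102441495-102441724, plus strand: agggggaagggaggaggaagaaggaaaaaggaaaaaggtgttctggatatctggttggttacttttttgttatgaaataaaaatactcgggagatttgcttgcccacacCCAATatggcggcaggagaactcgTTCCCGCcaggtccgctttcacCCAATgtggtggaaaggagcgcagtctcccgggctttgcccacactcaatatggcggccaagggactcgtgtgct

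A CHR match lay in 15 of the 19 windows of mitosis genes (78.9%) and in 2 of the 11 windows of replication genes (18.2%), against 19.2% of 32851 RefSeq promoter windows. An E2F match lay in 3 of the 19 mitosis windows (15.8%) and in 7 of the 11 replication windows (63.6%), against 9.57% of all windows. CCAAT was frequent in both, in 89.5% of the mitosis and 81.8% of the replication windows against 37.4% of all. The CHR matches of 14 mitosis genes lay after a CCAAT box, and the distance from the nearest box before it to each of these 20 matches varied widely, from 9 to 153 bases with a median of 32. In 10 of the 20 it was 25 to 35 bases, as in Ccnb2 (25), Prc1 (32) and Ube2c (28), and it lay outside that range in Kif23 (9), Plk1 (44), Aurka (51), Bub1 (56), Cenpf (73) and Bub1b (153). The windows of Prc1 overlap and held the same CHR site and CCAAT box. This site is therefore counted more than once in the window shares, in the 20 and in the 10. Birc5, Nusap1, Tyms and Tk1 held none of these letters in the window, which says nothing of whether the factors bind there. The genes were listed by function, and these factors are known for such genes, so the shares describe the list and are not a test.

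**Figure D1:**
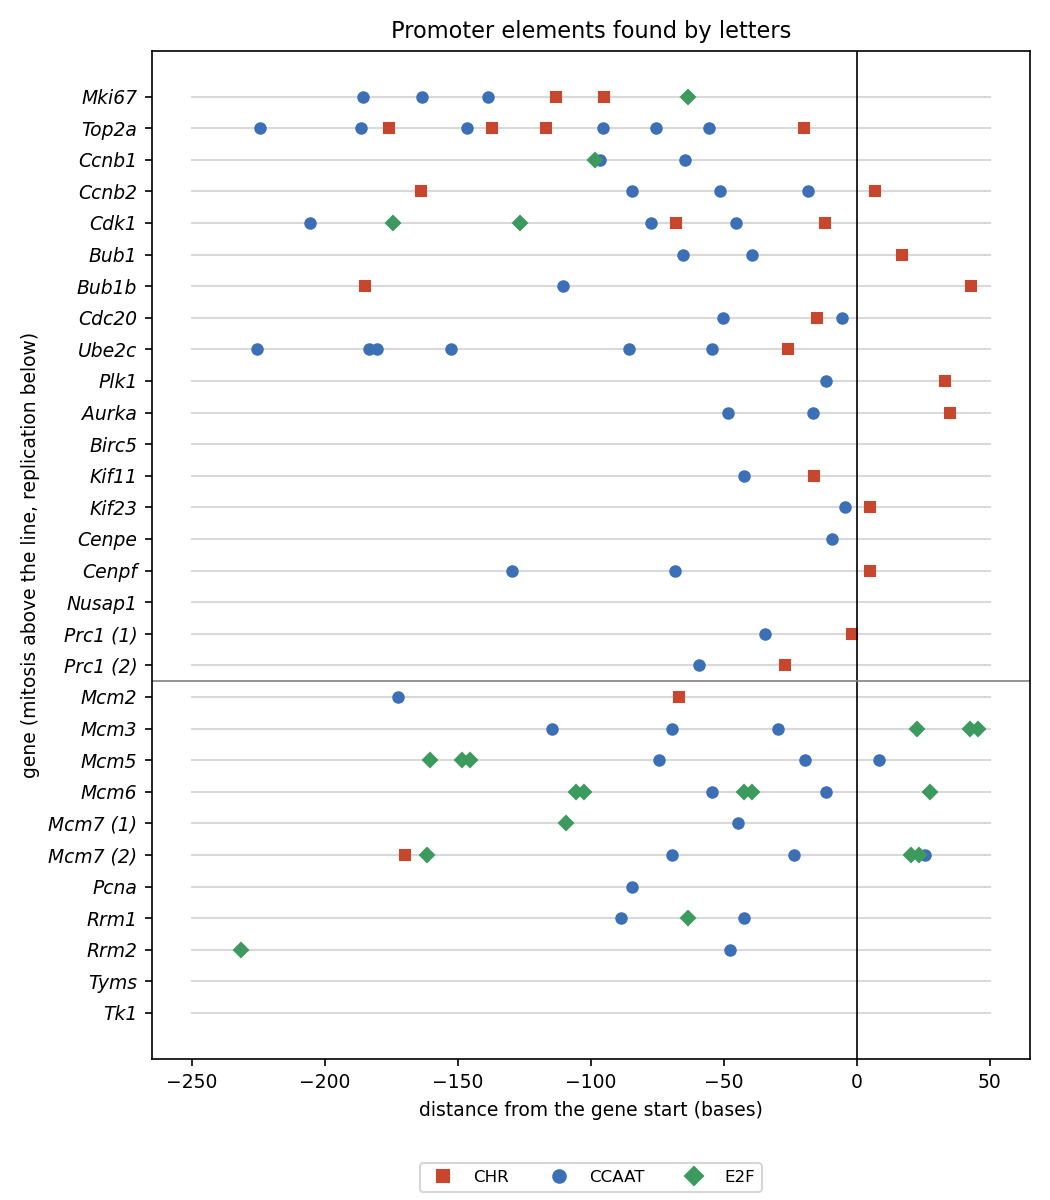
Position of CHR (squares), CCAAT (circles) and E2F (diamonds) matches in the 30 promoter windows, with the distance from the gene start in bases on the x axis and 1 line per window, mitosis genes above the dividing line. CHR matches lie mostly in the upper part (15 of 19 windows) and E2F matches mostly in the lower part (7 of 11 windows).

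Total counts per sample ranged from 6781239 to 8450038 in other tumor cells and from 8114933 to 9100552 in TICs, so that 3 counts, the limit that a count of 0 allows, correspond to 0.33 to 0.44 CPM (counting error only). TIC sample 3 stood apart from the rest: its mean correlation with the other samples was the lowest (0.701, the others 0.732 to 0.774) and 8.9% of the expressed genes had no count in it (2.67% to 6% in the others). Of the sort markers, Thy1 (CD90) averaged 51.4 ± 27.5 CPM in other tumor cells and 123 ± 73.7 CPM in TICs (SD, n = 3 each), and Cd24a averaged 470 ± 115 and 370.2 ± 63.6 CPM, and for both genes the groups overlapped. Sums of fibroblast, endothelial, pericyte or smooth muscle and luminal epithelial markers separated the groups, and those of basal, leukocyte and erythroid markers overlapped. The summed CPM of 6 fibroblast markers (all 6 expressed) was 2630 to 3065 in other tumor cells and 7052 to 10460 in TICs, that of 5 endothelial markers was 108 to 113 and 141 to 459, and that of 5 pericyte or smooth muscle markers was 513 to 623 and 891 to 1341. Not every gene followed its sum. In TICs Col1a1 (mean 4718 CPM) and Col1a2 (2666 CPM) made up most of the fibroblast sum (mean 9041 CPM). The groups overlapped in the fibroblast marker Lum (17.5 to 42.3 CPM in other tumor cells, 31.5 to 96.5 CPM in TICs). They also overlapped in the luminal marker Elf5 (117 to 261 CPM and 71.1 to 168 CPM). None of the 5 endothelial markers separated the groups singly, and in TIC sample 3 Kdr alone had 176.7 CPM. Of the pericyte or smooth muscle markers, Acta2 (means of 157.6 CPM in other tumor cells and 156.4 CPM in TICs) and Myh11 (35.2 and 37.0 CPM) hardly differed. The sum of 5 luminal epithelial markers was 5301 to 5661 in other tumor cells and 3511 to 4002 in TICs, and that of 4 basal markers was 449 to 983 and 356 to 583. Of 4 leukocyte markers 1 passed the filter, with sums of 3.72 to 17.6 and 4.09 to 23.5 CPM; Cd3e had no count in any sample and Ptprc had counts in other tumor cell sample 1 alone, while Itgam had counts only in TICs (63, 4 and 0 in the 3 samples). Of 4 erythroid markers 3 passed, with sums of 26.7 to 100.2 and 15.4 to 161 CPM, and Hba-a2 had no count. The part of cell makeup in the values below was not tested.

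As a group, the cell cycle genes did not separate the sorts, by their summed level or by their mean score. The 33 genes together made up 1257, 978 and 965 CPM in the 3 samples of other tumor cells and 1065, 1148 and 1113 CPM in the 3 TIC samples, a ratio of the means of 1.04. The mean score, the average log2 CPM of the 31 expressed genes, was 4.78, 4.15 and 3.99 in other tumor cells and 4.48, 4.29 and 3.97 in TICs, so the groups overlapped and the TIC mean was lower by 0.058 (4.30 ± 0.42 against 4.25 ± 0.26, SD, n = 3 each). Within the other tumor cells alone, single scores ran from 3.99 to 4.78, and such a range is not a measure of the difference between means.

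The replication genes and the mitosis genes were then scored apart. The 11 replication genes averaged 4.76, 4.55 and 4.56 log2 CPM in other tumor cells and 4.34, 4.84 and 5.03 in TICs. The 20 expressed mitosis genes averaged 4.78, 3.93 and 3.68 in other tumor cells and 4.56, 3.98 and 3.39 in TICs. The TIC mean was higher by 0.11 for replication and lower by 0.15 for mitosis, and in both cases the groups overlapped. The replication score minus the mitosis score was -0.22, 0.85 and 1.64 in TICs and -0.021, 0.62 and 0.88 in other tumor cells, with overlap. The means of this difference lay 0.26 apart, with an SD of 0.93 in TICs and 0.47 in other tumor cells. TIC sample 3, the sample with the most genes at 0, had the highest replication score and the lowest mitosis score of the 6. Summed CPM weighed the well counted genes more: it was 285 to 446 in TICs and 335 to 357 in other tumor cells for replication, and 668 to 779 and 624 to 900.1 for mitosis, and again the groups overlapped.

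**Figure D2:**
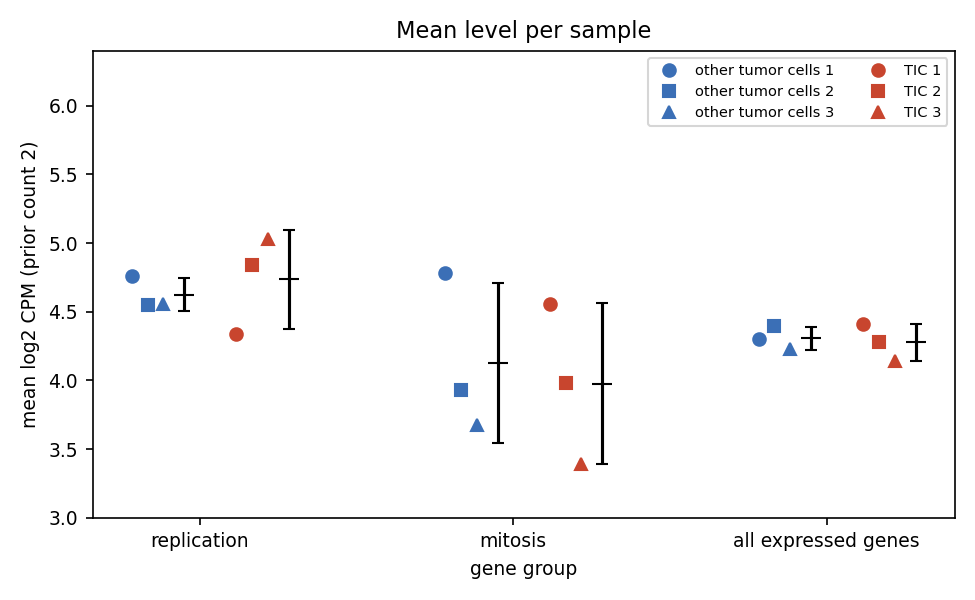
Mean log2 CPM (y axis, prior count 2) of the 11 replication genes, the 20 expressed mitosis genes and all 12192 expressed genes in each sample, with the mean and SD of each group in black (n = 3). The groups overlap for both gene groups, and the mitosis score spreads from 3.39 to 4.78 over the 6 samples while the mean of all expressed genes stays between 4.14 and 4.41.

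Gene by gene, none of the 31 expressed genes passed an adjusted p of 0.1 in edgeR's exact test, in either direction, where 1.55% of all 12192 expressed genes did (1.36% higher and 0.189% lower in TICs). At an unadjusted p below 0.05 there were 4 of 31 (12.9%), Top2a, Pcna and Rrm1 higher and Birc5 lower in TICs, against 7.85% of all expressed genes. The quasi-likelihood test and DESeq2 called none of the 31 either, and called 0.41% and 2.52% of all genes they tested, with 4 and 5 of the 31 at an unadjusted p below 0.05. In 6 of the 31 genes (19.4%) the 3 TIC samples lay all above (4 genes) or all below (2 genes) the 3 samples of other tumor cells, against 15.2% of all expressed genes (7.69% above and 7.55% below). The fold change was positive in 14 of the 31 (45.2%; 49.7% of all expressed genes), and its median on the log2 scale was -0.057, beside -0.0061 over all expressed genes.

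**Figure D3:**
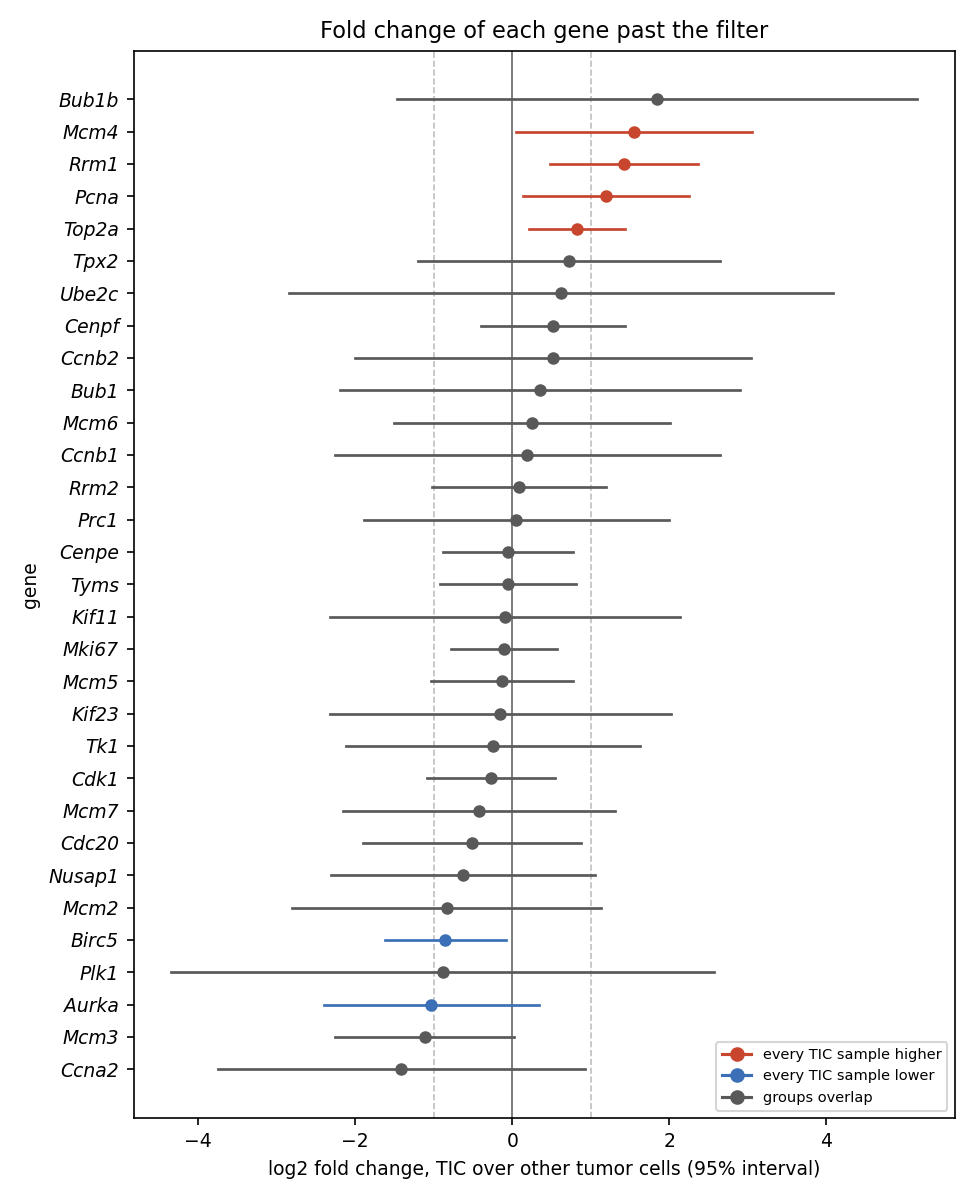
Log2 fold change of TICs over other tumor cells for the 31 expressed genes (x axis), with the 95% interval as a bar, ordered by size. Red and blue mark the 4 and 2 genes whose groups do not overlap, and dashed lines mark a log2 fold change of 1 in each direction, which 16 of the bars reach past on both sides.

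How much these data exclude differed between the genes. The interval of the log2 fold change lay within 1 of 0 in 3 of the 31 (9.68%, against 14% of all expressed genes), namely Mki67, Cenpe and Tyms, while in 16 it reached past 1 in both directions. The precision followed the level of the gene. Among 16 genes with a mean of at least 20 CPM over all samples the median SE of the log2 fold change was 0.47, and among 15 genes below 20 CPM it was 1.14. The biological coefficient of variation, the spread between replicates in the fitted model, had a median of 0.40 and 0.96 in these groups. All 4 genes at an unadjusted p below 0.05 were among the 16 better counted ones, and all 5 zero counts were among the other 15.

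**Figure D4:**
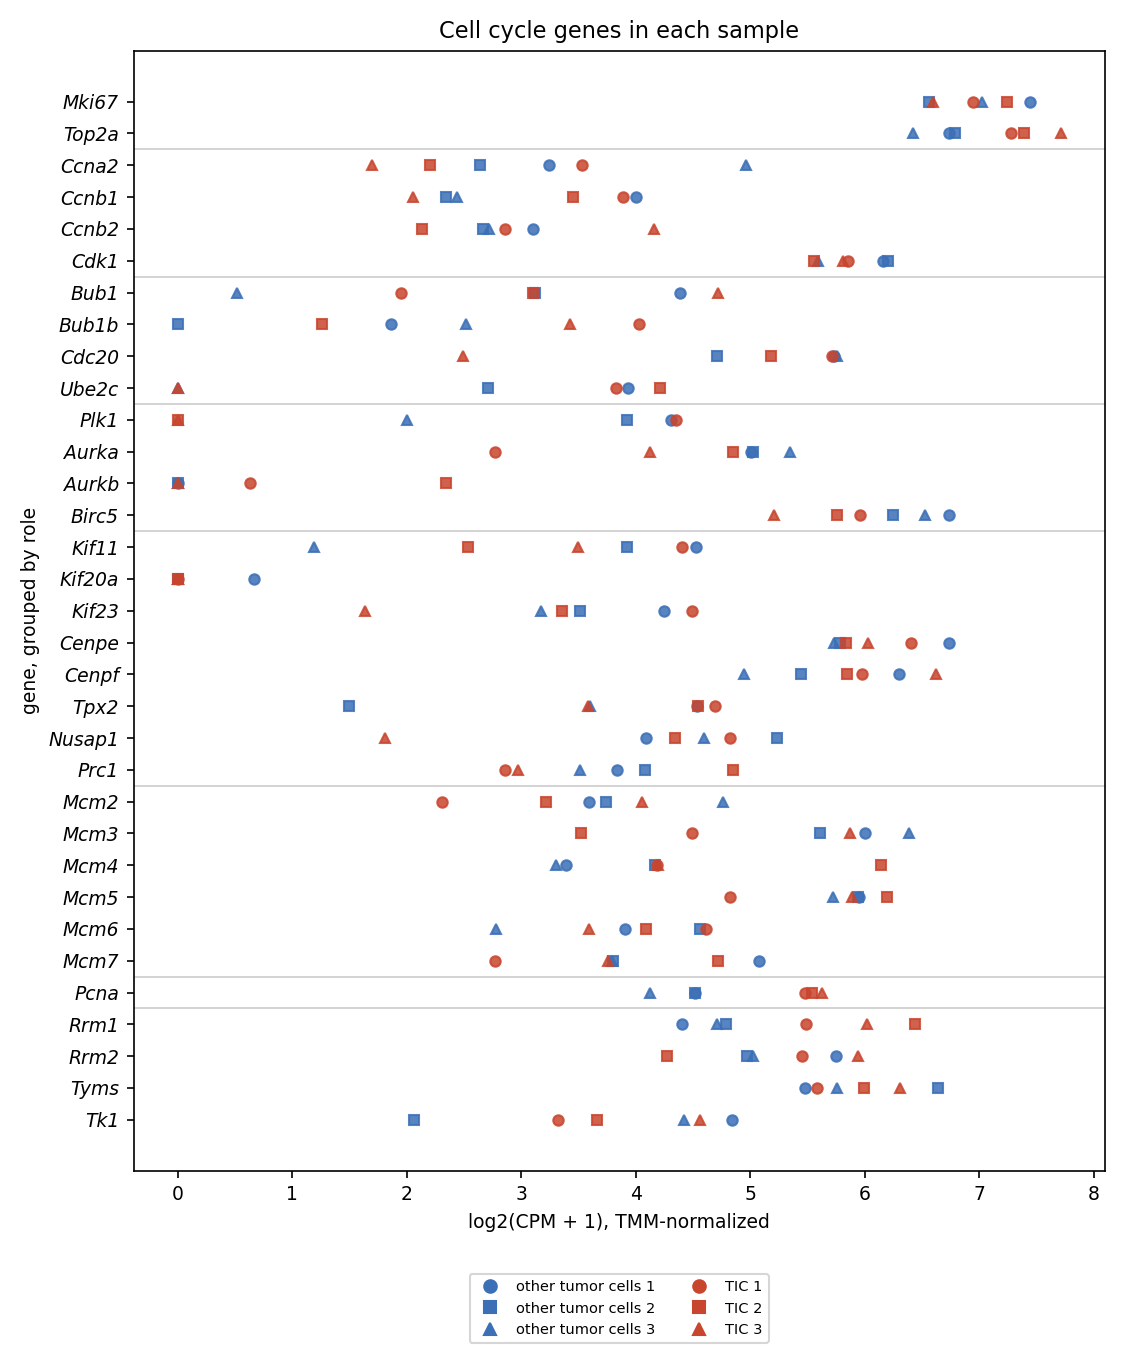
Level of each of the 33 genes in each sample as log2(CPM + 1) on the x axis, blue for other tumor cells and red for TICs, with genes grouped by role. Rrm1, Pcna, Top2a and Mcm4 have every red point to the right of the blue ones, Birc5 and Aurka have every red point to the left, and in the poorly counted mitosis genes the points of 1 colour spread widely.

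Among the general markers of proliferation, Mki67, which encodes the Ki-67 antigen that coats mitotic chromosomes, had 173, 93.3 and 129 CPM in the 3 samples of other tumor cells and 122, 150.4 and 95.8 CPM in the 3 TIC samples. The groups overlapped fully, with the highest value in other tumor cell sample 1. The log2 fold change was -0.10 (95% interval -0.78 to 0.57, edgeR exact test, adjusted p = 1). Top2a, the topoisomerase that untangles replicated chromosomes (chr11:98992943-99024189, minus strand), had 106, 109 and 84.8 CPM in other tumor cells and 154, 167 and 208 CPM in TICs. All 3 TIC samples exceeded the highest of the other group, and the log2 fold change was 0.82 (SE 0.31, 95% interval 0.21 to 1.43) with p = 0.00906 before and 0.294 after adjustment in edgeR's exact test. Top2a thus separated the samples by sort and Mki67 did not, and the difference between the genes was not tested. A small RNA gene, Gm23451, overlaps Top2a on the same strand.

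The cyclins and their kinase drive entry into mitosis. Cdk1, the kinase itself, was the best counted of these with 70.6, 72.6 and 47.2 CPM in other tumor cells and 56.9, 45.9 and 55.0 CPM in TICs, and the groups overlapped (log2 fold change -0.27, interval -1.08 to 0.54). Ccna2, the cyclin of S phase and G2, had 8.46, 5.22 and 30.2 CPM in other tumor cells and 10.6, 3.61 and 2.24 CPM in TICs, and its high mean in the first group came from sample 3 (log2 fold change -1.41, interval -3.75 to 0.92). The B cyclins, which complete the mitotic kinase, were low: Ccnb1 had 15.0, 4.08 and 4.43 and 13.8, 9.91 and 3.17 CPM. Ccnb2 had 7.59, 5.33 and 5.58 CPM in other tumor cells and 6.26, 3.38 and 16.9 CPM in TICs, with TIC sample 3 the highest of the 6. In these 4 genes the groups overlapped, and the intervals of both B cyclins reached past 1 in both directions. The reference annotation holds named pseudogenes of Ccnb1 and Ccnb2, and the authors removed reads that mapped to more than 1 place.

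The spindle checkpoint holds the cell until all chromosomes are attached, and the anaphase promoting complex then releases it. Cdc20, which activates that complex, had 52.2, 25.2 and 53.1 CPM in other tumor cells and 51.5, 35.3 and 4.62 CPM in TICs, and TIC sample 3 was the lowest. Its partner in ubiquitin transfer, Ube2c, had 14.3, 5.56 and 0 CPM in other tumor cells and 13.2, 17.5 and 0 CPM in TICs, with no count in sample 3 of either group. Among the checkpoint kinases the samples of 1 group lay far apart. Bub1 had 19.9, 7.72 and 0.429 CPM in other tumor cells and 2.86, 7.58 and 25.3 CPM in TICs. Bub1b had 2.63, 0 and 4.72 CPM in other tumor cells and 15.3, 1.40 and 9.76 CPM in TICs, and its fold change, the highest of the 31 on the log2 scale at 1.84, had an interval from -1.47 to 5.16. None of these 4 genes separated the groups, and the smallest adjusted p among them was 1 in edgeR's exact test.

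The mitotic kinases and the chromosomal passenger complex were the role in which all expressed genes had a negative fold change, 3 of 3. Of all expressed genes 49.7% had a positive one, and the count of signs carries no test. Birc5, the survivin subunit that places the complex on centromeres (chr11:117849251-117855743, plus strand), had 105, 74.8 and 91.1 CPM in other tumor cells and 61.3, 52.9 and 35.9 CPM in TICs. All 3 TIC samples lay under the lowest of the other group, with a log2 fold change of -0.85 (SE 0.39, interval -1.62 to -0.08) and p = 0.0323 before and 0.52 after adjustment in edgeR's exact test. Aurka, the kinase of spindle poles (chr2:172356190-172370535, minus strand), had 31.2, 31.5 and 39.8 CPM in other tumor cells and 5.83, 27.9 and 16.5 CPM in TICs, also without overlap. The spread among the TIC samples was wide, the log2 fold change was -1.03 (SE 0.70, interval -2.40 to 0.34), and the adjusted p was 0.904 in edgeR's exact test. Plk1, which acts at each step of mitosis, had 18.8, 14.2 and 3.0 CPM in other tumor cells and 19.4, 0 and 0 CPM in TICs, so that 1 TIC sample was the highest of the 6 and the other two had no count. Aurkb, the kinase of the passenger complex, did not pass the filter, with no count in the 3 samples of other tumor cells and 5, 35 and 0 counts in TICs.

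Motor and microtubule proteins build the spindle and divide the cell. Cenpe, the kinetochore motor, had 106, 54.0 and 52.1 CPM in other tumor cells and 83.8, 56.0 and 64.1 CPM in TICs, with a log2 fold change of -0.05 (interval -0.88 to 0.77). Cenpf, a large kinetochore protein, had 77.9, 42.5 and 29.9 CPM in other tumor cells and 61.9, 56.3 and 97.4 CPM in TICs, with a log2 fold change of 0.52 (interval -0.39 to 1.43). These were the best counted of the role, and both groups overlapped in each. Kif11, the motor that pushes the poles apart, had 22.0, 14.2 and 1.29 CPM and 20.1, 4.78 and 10.3 CPM in the same order of groups. Kif23, a motor of the midbody, had 17.9, 10.4 and 8.01 CPM in other tumor cells and 21.4, 9.21 and 2.11 CPM in TICs. In both motors 1 sample was far below the others, in a different group each time. Tpx2, which seeds spindle microtubules and activates Aurora A, had 22.2, 1.82 and 11.2 CPM in other tumor cells and 24.8, 22.4 and 10.9 CPM in TICs. Nusap1, which bundles spindle microtubules, had 16.1, 36.5 and 23.2 CPM in other tumor cells and 27.4, 19.2 and 2.51 CPM in TICs. Prc1, which links antiparallel microtubules of the midzone, had 13.3, 15.9 and 10.4 CPM in other tumor cells and 6.26, 27.9 and 6.86 CPM in TICs. The groups overlapped in all 7 expressed genes of this role, whose log2 fold changes lay between -0.62 (Nusap1) and 0.73 (Tpx2). Leaving out 1 sample moved these between -1.20 and -0.098 for Nusap1 and between 0.22 and 1.59 for Tpx2, and 5 of the 7 intervals reached past 1 in both directions. Kif20a, a further motor of cell division, was barely detected, with 4 counts in other tumor cell sample 1 and none in the other 5 samples.

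In the replication genes, the MCM proteins form the ring of 6 subunits that unwinds DNA, and the fold changes of their RNAs had both signs. Mcm4 (chr16:15623897-15637400, minus strand) had 9.49, 17.0 and 8.87 CPM in other tumor cells and 17.1, 69.4 and 17.3 CPM in TICs. The groups did not overlap, but TIC samples 1 and 3 lay just above other tumor cell sample 2 and the rest of the difference came from TIC sample 2. The log2 fold change was 1.55 (SE 0.76, interval 0.05 to 3.05), with p = 0.0513 before and 0.64 after adjustment in edgeR's exact test. Mcm3 had 63.0, 47.7 and 82.8 CPM in other tumor cells and 21.4, 10.5 and 57.4 CPM in TICs. TIC samples 1 and 2 were below every sample of other tumor cells and TIC sample 3 was not, which gave a log2 fold change of -1.12 (SE 0.58, interval -2.25 to 0.02; edgeR exact test, adjusted p = 0.681). Mcm5 had 60.9, 60.4 and 51.6 CPM in other tumor cells and 27.4, 72.2 and 58.2 CPM in TICs, and TIC sample 1 was the lowest of the 6. Mcm2 had 11.1, 12.4 and 26.2 CPM in other tumor cells and 3.96, 8.28 and 15.6 CPM in TICs. Mcm6 and Mcm7 were also poorly counted. Mcm6 had 14.0, 22.6 and 5.87 CPM in other tumor cells and 23.5, 16.0 and 11.1 CPM in TICs, and Mcm7 had 32.7, 12.9 and 12.9 CPM and 5.83, 25.3 and 12.5 CPM. In these last 4 subunits the groups overlapped, with log2 fold changes of -0.13 (Mcm5), -0.84 (Mcm2), 0.25 (Mcm6) and -0.42 (Mcm7).

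Although the ring holds each subunit once, their RNA levels per kilobase of exon were unequal in every sample. The highest subunit exceeded the lowest by 10.5, 8.5 and 17.6-fold in the 3 samples of other tumor cells and by 12, 16.2 and 6.84-fold in the 3 TIC samples. Mcm2 was the lowest in 5 of the 6 samples, and Mcm3, Mcm5 or Mcm4 was the highest. The length joins all annotated exons of a gene, used in these cells or not, and was 6956 bases for Mcm2 and 3752 for Mcm3. The order depends on it. By CPM alone Mcm4 was below Mcm2 in other tumor cell sample 1 (9.49 and 11.1 CPM), and Mcm6 was below Mcm2 in TIC sample 3 (11.1 and 15.6 CPM). Mcm7 shares its locus with the microRNA genes Mir25 and Mir93 on the same strand and with Ap4m1 and Cops6 on the other strand.

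Pcna, the sliding clamp that holds the polymerase on DNA (chr2:132249162-132253314, minus strand), had 21.9, 21.9 and 16.4 CPM in other tumor cells and 43.5, 45.6 and 48.3 CPM in TICs. All TIC samples were higher and close together (45.8 ± 2.39 CPM against 20.1 ± 3.14 CPM, SD, n = 3 each), with a log2 fold change of 1.19 (SE 0.54, interval 0.13 to 2.25). The p was 0.0311 before and 0.515 after adjustment in edgeR's exact test, and leaving out any sample kept the log2 fold change between 1.07 and 1.27. Named pseudogenes of Pcna and Tyms are in the annotation, so reads shared with them were dropped.

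Ribonucleotide reductase makes the building blocks of DNA and has a large subunit, Rrm1, and a small one, Rrm2. Rrm1 (chr7:102441695-102469771, plus strand) had 20.1, 26.7 and 25.2 CPM in other tumor cells and 43.7, 85.5 and 64.0 CPM in TICs. All 3 TIC samples exceeded the highest of the other group (64.4 ± 20.9 CPM against 24.0 ± 3.42 CPM, SD, n = 3 each). The log2 fold change of 1.42 (SE 0.48, interval 0.48 to 2.37) had the smallest p of the 31 genes, 0.00407, and an adjusted p of 0.177 in edgeR's exact test. Rrm2 had 52.8, 30.3 and 31.5 CPM in other tumor cells and 42.6, 18.3 and 60.4 CPM in TICs, and with a log2 fold change of 0.08 (interval -1.02 to 1.19) its groups overlapped. Whether the subunits differed from each other in their response was not tested. Tyms, the thymidylate synthase, had 43.6, 98.5 and 53.1 CPM in other tumor cells and 47.0, 62.5 and 78.2 CPM in TICs (log2 fold change -0.06, interval -0.93 to 0.81). Tk1, the thymidine kinase of the salvage route, had 27.6, 3.18 and 20.4 CPM in other tumor cells and 9.01, 11.7 and 22.6 CPM in TICs (log2 fold change -0.24, interval -2.12 to 1.63).

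The calls depended on single TIC samples. Without TIC sample 1, 2 of the 31 genes passed an adjusted p of 0.1 (2.76% of all genes tested then did): Rrm1, higher in TICs (edgeR exact test, adjusted p = 0.0767), and Plk1, lower. The remaining TIC samples had no Plk1 count (edgeR exact test, adjusted p = 0.0887). Against the limit of 3 counts per library, which covers counting error only, their level was at least 32.2-fold below the mean of other tumor cells (12 CPM). That mean came from samples of 3.0 to 18.8 CPM, and the TIC sample left out was the highest of the 6 at 19.45 CPM. The limit leaves out the spread between pools, which was wide for Plk1 (fitted coefficient of variation 1.49). With all 6 samples the interval of its log2 fold change was -4.35 to 2.57. Without TIC sample 3, Mcm3 alone passed, lower in TICs (edgeR exact test, adjusted p = 0.0678; 1.08% of all genes tested passed). Leaving out any of the other 4 samples gave no call among the 31.

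Levels of different genes were compared per kilobase of exon, within each sort. The length again joins all annotated exons of a gene, so the order depends on the annotation. In other tumor cells Birc5 (26.6 ± 4.50 CPM per kb) and Cdc20 (23.3 ± 8.49) had the highest means, ahead of Mcm3 (17.2 ± 4.70) and Mcm5 (14.4 ± 1.3) (SD, n = 3). In TICs Top2a (19.6 ± 3.14 CPM per kb) and Pcna (19.1 ± 0.998) came first, then Cdc20 (16.3 ± 12.8) and Birc5 (14.7 ± 3.81) (SD, n = 3). Rrm2, Mki67, Cdk1, Cenpe and Kif11 held the same places in both orders, 5, 7, 8, 12 and 28. Prc1, Kif11 and Kif23 were below 2 CPM per kb in both sorts. These ranks carry no test, and within the 28 genes with no zero count the highest sample of a group exceeded the lowest by a median of 2.07-fold in other tumor cells and 3.62-fold in TICs, so neighbours in the order are not separated. Exons of 9 of the 33 genes overlap an exon on the other strand (Ube2c, Kif20a, Cdc20, Tk1, Nusap1, Ccna2, Mcm7, Plk1 and Prc1), and the strand setting of the counting is not given in the sources used here.

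The lowest and highest values were spread over all 6 samples. Of the 31 expressed genes, 2, 4 and 8 had their lowest value in other tumor cell samples 1, 2 and 3, and 5, 4 and 6 in TIC samples 1, 2 and 3. The highest value fell in these samples for 7, 3, 5, 5, 5 and 6 genes in the same order. Of all expressed genes, 13%, 10.8%, 14.6%, 12.9%, 16.8% and 23.1% had their lowest value in these samples, again in that order. Their highest value fell there for 15.4%, 14.5%, 15.9%, 15%, 17.4% and 21.9%, so TIC sample 3 held the most extremes over all genes. In 12 of the 31 genes the samples of 1 group were more than 5-fold apart or included a zero count.

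The machinery around these genes was followed in 104 further cell cycle genes, of which 98 were expressed. Of these, 1 was higher and none was lower in TICs at an adjusted p below 0.1 in edgeR's exact test (8 of 98 at an unadjusted p below 0.05, 8.16%, beside 7.85% of all expressed genes), where 1.36% of all expressed genes were called higher. In 10 the groups did not overlap (10.2%, beside 15.2% of all expressed genes). The fold change was positive in 46 and negative in 52, with a median of -0.071 on the log2 scale. The 6 genes that did not pass the filter were Ccne2, Tfdp1, Cdc45, Rfc4, Dck and Wee1.

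Ccnd2, a D cyclin that starts the passage through G1, was the gene that passed. It had 59.4, 78.1 and 72.5 CPM in other tumor cells and 75.2, 210.4 and 250.4 CPM in TICs. TIC sample 1 lay within the range of the other group and TIC samples 2 and 3 well above it, and the log2 fold change was 1.35 (SE 0.41, interval 0.55 to 2.15; edgeR exact test, adjusted p = 0.0878). The call was lost in the quasi-likelihood test (adjusted p = 0.269), with scaling by library size alone (adjusted p = 0.129), with no filter (adjusted p = 0.176) and when any sample but TIC sample 1 was left out. Its relative Ccnd1 had 94.3, 104 and 76.1 CPM in other tumor cells and 44.3, 74.8 and 176 CPM in TICs, a log2 fold change of 0.10 (interval -0.78 to 0.99). The values of Ccnd1 in TICs spread around those of the other group on both sides.

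Among the CDK inhibitors, which hold the cycle back, Cdkn1a (p21) had 74.1, 72.0 and 95.7 CPM in other tumor cells and 99.5, 145 and 168 CPM in TICs. The groups did not overlap (log2 fold change 0.77, interval 0.11 to 1.44; edgeR exact test, p = 0.0241, adjusted p = 0.46). Cdkn1b (p27) had 30.2, 28.9 and 18.2 CPM in other tumor cells and 7.47, 15.4 and 37.3 CPM in TICs, with overlap. In the RB and E2F family, E2f2, an activating E2F, had 46.7, 27.5 and 31.6 CPM in other tumor cells and 1.21, 5.83 and 10.6 CPM in TICs. Every TIC sample was below the lowest sample of the other group, with a log2 fold change of -2.59 (SE 0.83, interval -4.22 to -0.95), p = 0.00411 before and 0.177 after adjustment in edgeR's exact test. DESeq2 called E2f2 lower in TICs (adjusted p = 0.0911), as did edgeR's exact test without TIC sample 3 (adjusted p = 0.0617), while the quasi-likelihood test did not.

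The factors of the mitosis genes themselves did not pass the test. Foxm1 had 29.3, 40.2 and 18.7 CPM in other tumor cells and 10.8, 26.4 and 34.0 CPM in TICs (log2 fold change -0.31, interval -1.63 to 1.01). Mybl2, which encodes B-Myb, had 19.9, 3.75 and 16.6 CPM in other tumor cells and 1.54, 5.36 and 17.6 CPM in TICs (log2 fold change -0.72, interval -3.05 to 1.62). Both were spread within each group and overlapped between the groups. Lin52, a MuvB subunit and the gene with the smallest p of that role, had 0, 1.25 and 0 CPM and 12.4, 7.0 and 0 CPM, a pattern of zeros with no call.

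Of the origin licensing genes, Orc6, a subunit of the origin recognition complex, had 11.4, 2.04 and 9.01 CPM in other tumor cells and 40.8, 33.2 and 17.0 CPM in TICs, without overlap (log2 fold change 2.02, interval 0.35 to 3.69; edgeR exact test, adjusted p = 0.468). Gins4, a subunit of the GINS complex that travels with the MCM ring, had 47.7, 23.3 and 12.3 CPM in other tumor cells and 27.0, 87.0 and 34.2 CPM in TICs, with overlap. At the fork itself, Rpa2, a subunit of the protein that coats single-stranded DNA, had 65.2, 72.3 and 130.5 CPM in other tumor cells and 42.6, 45.2 and 40.2 CPM in TICs. All TIC samples of Rpa2 were lower and close together (log2 fold change -1.06, interval -1.88 to -0.25; edgeR exact test, adjusted p = 0.335). Its role, with the polymerases, clamp loader and ligase, had 17 expressed genes and no call. The fold change was positive in 6 of them (35.3%, beside 49.7% of all expressed genes). In 4 (23.5%) every TIC sample was below the other group, beside 7.55% of all expressed genes, and in none above it. Rrm2b, the alternative small subunit of ribonucleotide reductase, had 7.59, 2.84 and 0 CPM in other tumor cells and 10.6, 24.6 and 21.5 CPM in TICs, without overlap (log2 fold change 2.44, interval -0.11 to 4.98; edgeR exact test, adjusted p = 0.793). None of the 3 reductase genes was called. Rrm1 and Rrm2b had all TIC samples above the others, as 7.69% of all expressed genes did, and Rrm2 did not. Rrm2b was named for having the smallest p of its role, and it had no count in other tumor cell sample 3.

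The genes of chromosome structure and division gave no call either. Of the condensin and cohesin genes 9 of 10 had a positive fold change (49.7% of all expressed genes did), with a median of 0.24 on the log2 scale. The groups overlapped in all 10, and the count of signs carries no test. Stag1, a cohesin subunit, had the smallest p of them with 17.2, 27.8 and 29.0 CPM in other tumor cells and 72.0, 75.4 and 28.4 CPM in TICs (log2 fold change 1.25, interval 0.20 to 2.30; edgeR exact test, adjusted p = 0.451). The groups of Stag1 overlapped through TIC sample 3. Incenp, the scaffold of the chromosomal passenger complex to which Birc5 belongs, had 57.6, 66.0 and 81.5 CPM in other tumor cells and 108, 109 and 66.4 CPM in TICs, with overlap. Cdc25b, a phosphatase that activates Cdk1, had 55.2, 27.0 and 15.4 CPM in other tumor cells and 19.3, 21.9 and 18.2 CPM in TICs, also with overlap.

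**Figure D5:**
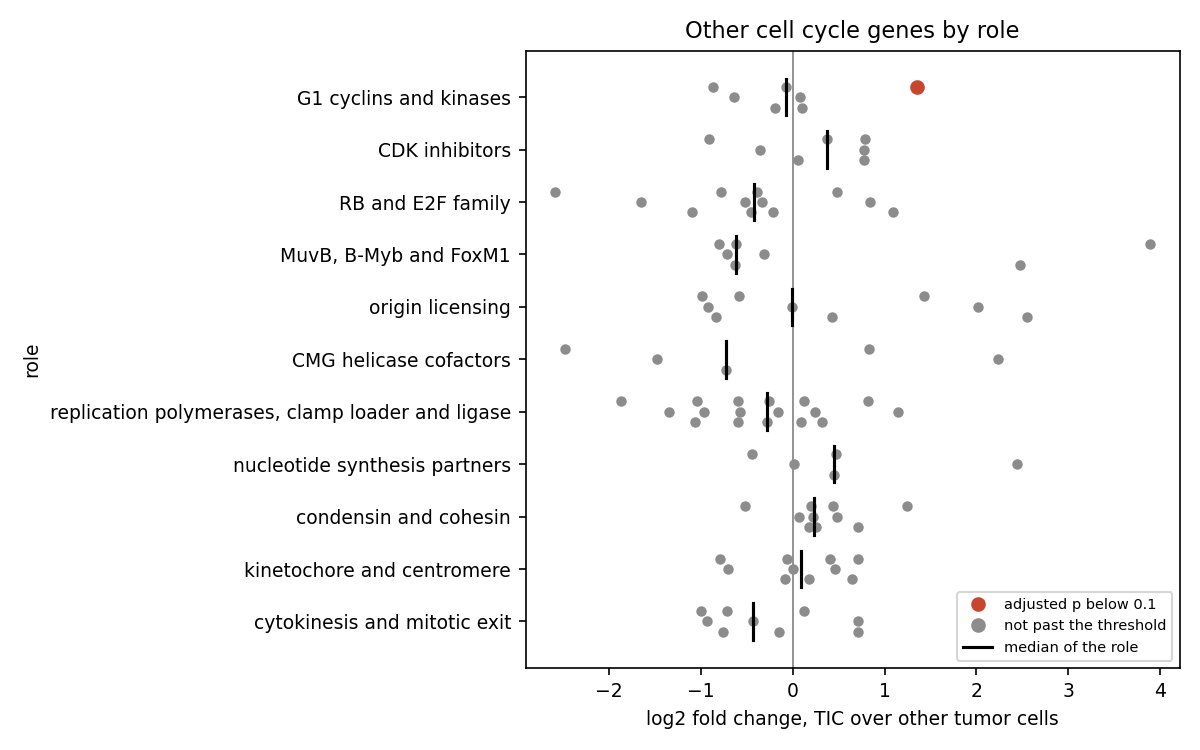
Log2 fold change of TICs over other tumor cells (x axis) for the 98 expressed genes of the further list, 1 point per gene in rows by role, with a black bar at the median of each role. The red point is Ccnd2 (1.35), the gene past the threshold, and the point farthest from 0 is Lin52 (3.89), which has no count in 3 samples.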

How the data were processed

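The authors trimmed reads (Trimmomatic 0.32), aligned them to GRCm38 (STAR 2.4.0), removed reads without a unique position (SAMtools 1.1) and counted the rest per gene with HTSeq. They deposited raw counts per Ensembl gene, without normalization. The 33 genes and all gene lists were chosen with earlier results of these data known. Symbols, coordinates and exon lengths came from GENCODE M21 and promoters from RefSeq, both on GRCm38. Genes above 1 CPM in at least 3 of 6 samples were kept, counts were scaled by TMM, and edgeR's exact test (edgeR 4.0.16, R 4.3.3, common and tagwise dispersions) was run on all 12192 genes with Benjamini-Hochberg adjustment and a threshold of 0.1. SE and 95% intervals came from the negative binomial model at the tagwise dispersion. Scores were means of log2 CPM with a prior count of 2 and carry no test. Alternatives were the quasi-likelihood test, DESeq2 1.42.0, RLE factors, library size alone, other filters, and each sample left out. The scripts were tested on simulated data in which large changes were planted only in genes above a mean of 20 CPM. Recovery of changes in less counted genes was not covered. Each role's gene with the smallest p, the genes past the threshold, Foxm1, Mybl2, Ccnd1, Cdkn1a and Cdkn1b were named from the further list. Samples of 1 group are separate pools, so p-values rest on the spread between pools. The model draws that spread for each gene partly from all expressed genes, whose common coefficient of variation was 0.823. The fitted spread, and with it p-values and intervals, can thus differ from the gene's own, as for Pcna (fitted coefficient 0.453). The HTSeq version and annotation release are not given in the sources used here. With 3 against 3 samples an exact permutation test cannot go below 0.1, and none was used. 1 leukocyte marker is not reported here.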

Additional observations from a re-analysis of the deposited data

How the results depend on the processing

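With all 6 samples kept, none of the 31 expressed genes was called in any of 6 alternatives and none changed sign. With a sample left out, 0 to 1 gene was called higher and 0 to 1 lower, 9 to 20 had a positive fold change and the TIC minus other score ranged from -0.21 to 0.19, so its sign rests on single samples. Of the 31 genes, 16 changed sign in at least 1 such fit. The log2 fold change with a sample left out ranged from -0.30 to 0.15 for Mki67, -0.24 to 1.09 for Ccnb1, -0.33 to 0.91 for Ccnb2, -0.81 to 1.55 for Bub1, -1.10 to 0.018 for Cdc20, -0.0036 to 1.89 for Ube2c, -0.71 to 0.61 for Kif11, -1.08 to 0.36 for Kif23, -0.23 to 0.37 for Cenpe, -1.0 to 0.41 for Prc1, -0.43 to 0.19 for Mcm5, -0.12 to 0.76 for Mcm6, -1.08 to 0.19 for Mcm7, -0.30 to 0.44 for Rrm2, -0.26 to 0.37 for Tyms, -0.73 to 0.29 for Tk1, -0.64 to 0.053 for Foxm1, -0.60 to 0.47 for Ccnd1 and -1.15 to 0.046 for Cdkn1b. Of the further list, 0 genes were called higher under the quasi-likelihood test, library size alone and no filter (1 in the main test, Ccnd2), and 0 to 1 with a sample left out; 1 was called lower under DESeq2 and 0 to 1 with a sample left out. Over all genes, 166 were called higher and 23 lower, 49 and 1 by the quasi-likelihood test, 230 and 75 by DESeq2, 108 and 4 with no filter, and 69 to 225 and 2 to 98 with a sample left out. The cause of these shifts was not tested. No paired analysis was run because the replicate numbers follow the order of deposit and the labels tie no TIC sample to a sample of the other group. Whether pools of both sorts shared mice is not given in the labels. The study describes 4 mice per pool, and its supplement gives a total number of mice. If that total covers both sorts, their pools shared mice, so the groups may not be independent. Intervals were widest for genes below 20 CPM, in which the fitted spread between samples was also larger.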
